A study of Mus musculus with 6 samples.

Results

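The TGF-beta receptors and SMADs are described here as the stretches of open chromatin at 9 mouse genes: Tgfb1, Tgfbr1, Tgfbr2, Smad2, Smad3, Smad4, Smad7, Ski and Skil. A region of the count matrix was taken where it overlapped one of these genes, or where the closest end of any protein-coding gene belonged to one of them and lay within 50 kb. That gave 49 of the 24605 regions: 3 at Tgfb1, 1 at Tgfbr1, 11 at Tgfbr2, 3 at Smad2, 10 at Smad3, 3 at Smad4, 8 at Smad7, 7 at Ski and 3 at Skil. A region carries the name of the gene it overlaps or lies next to, and whether it acts on that gene was not tested.

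TGF-beta is a secreted cytokine held in a latent form until it is released. It binds the type II receptor, which recruits and phosphorylates the type I receptor, and this in turn phosphorylates receptor SMADs that enter the nucleus with the common SMAD and act on target genes. In CD8+ T cells, the cytotoxic lymphocytes, the pathway is known for restraining proliferation and effector function and for supporting tissue residency.

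The study measured chromatin accessibility by ATAC-seq, in which the Tn5 transposase cuts open DNA, to ask how palmitate, a common saturated fatty acid, affects CD8+ T cells. Cells of WT genotype, taken from pancreas, spleen and lymph nodes of mice, were cultured with 100 µM palmitate (3 libraries) or as controls (3 libraries), and were profiled after 48 hours, with 50000 sorted cells per library. The sources used here do not give the vehicle of the controls or the strain, age and number of mice. Nothing says that libraries of a group came from separate mice or cultures, so the p-values reflect how these 6 libraries vary, and that variation may be technical. In such bulk libraries, fewer cells with a region open and less opening per cell cannot be told apart.

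The libraries held 2219136 to 3089230 counts in regions, of which the 49 regions took 0.227%, 0.234% and 0.221% in palmitate libraries and 0.212%, 0.216% and 0.220% in control libraries. The T cell genes Cd3e, Cd3d and Cd3g and the CD8 genes Cd8a and Cd8b1 all had regions. Those regions summed to 391 to 473 counts scaled to library size (CPM) with palmitate and 436 to 461 CPM in control. None of the 15 regions was called by edgeR or DESeq2, with 0 higher and 2 lower with p below 0.05 before adjustment. The lowest adjusted p values in edgeR were at Cd8a (log2 fold change, palmitate over control, -0.46, adjusted p 0.0592) and Cd8b1 (-0.39, adjusted p 0.0926). Another Cd8a region had -0.44 (adjusted p 0.142), and the remaining Cd8a and Cd8b1 regions ranged from -0.35 to 0.16. No region lay at the B cell genes Cd79a, Cd79b and Ms4a1, the myeloid genes Lyz2, Csf1r and Cd68, the natural killer gene Ncr1, the pancreas genes Ins1, Ins2 and Cpa1 or the fibroblast gene Col3a1. Regions lay at the B cell gene Pax5 (52.8 to 98.8 CPM with palmitate and 57.2 to 74.4 CPM in control) and at 2 of 5 myeloid genes (50.2 to 55.3 CPM with palmitate and 43.5 to 60.8 CPM in control). They also lay at 2 of 3 natural killer genes (139 to 157 CPM with palmitate and 133 to 143 CPM in control), 2 of 5 pancreas genes (177 to 208 CPM with palmitate and 194 to 211 CPM in control) and 2 of 3 fibroblast genes (24.9 to 31.9 CPM with palmitate and 29.2 to 37.7 CPM in control). Most of the pancreas sum came from 1 region 29240 bp from Prss2, with 113 to 124 CPM with palmitate and 115 to 130 CPM in control. Regions were placed against protein-coding genes only, so other kinds of genes near that region are not named. Whether that region reflects pancreas cells was not tested. Both CD4+ lineage genes, Cd4 and Zbtb7b, had regions, with summed levels of 82.7 to 115 CPM with palmitate and 67.2 to 90.4 CPM in control. The region over an end of Zbtb7b was called higher, as was 1 myeloid region, while 1 B cell and 1 myeloid region were called lower. The part of other cells in the results at the 9 genes was not tested.

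Annotated transcription starts with sequence were at hand for 5 of the 9 genes, Tgfbr1, Tgfbr2, Tgfb1, Smad3 and Ski, in RefSeq's annotation of GRCm38.p6 (mm10). The windows below run from 250 bases before to 50 bases after the start, 5′ to 3′ along the gene. They are shown for the 4 genes whose accessible gene-end region covers all or nearly all of the window, a pair that was called higher with palmitate (Tgfbr1 and Tgfb1) and a pair that was not called (Tgfbr2 and Smad3). Capitals mark the GC box, the letters GGGCGG or, on the other strand, CCGCCC, a motif bound by Sp-family factors at many housekeeping promoters.
Tgfbr1, chr4:47352972-47353271, plus strand: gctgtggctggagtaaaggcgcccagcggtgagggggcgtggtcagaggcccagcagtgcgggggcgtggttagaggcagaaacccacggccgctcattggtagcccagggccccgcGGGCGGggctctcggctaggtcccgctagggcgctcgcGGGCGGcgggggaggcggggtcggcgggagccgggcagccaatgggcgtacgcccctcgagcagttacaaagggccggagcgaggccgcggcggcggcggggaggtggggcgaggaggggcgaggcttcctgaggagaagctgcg
Tgfb1, chr7:25686752-25687051, plus strand: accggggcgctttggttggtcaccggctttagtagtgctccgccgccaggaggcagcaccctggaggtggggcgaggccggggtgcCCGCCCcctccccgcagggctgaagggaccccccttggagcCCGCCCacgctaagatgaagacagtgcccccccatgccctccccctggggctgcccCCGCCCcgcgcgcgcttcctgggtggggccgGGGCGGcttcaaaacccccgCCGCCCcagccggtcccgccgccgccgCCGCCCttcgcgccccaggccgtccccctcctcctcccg
Tgfbr2, chr9:116175314-116175613, minus strand: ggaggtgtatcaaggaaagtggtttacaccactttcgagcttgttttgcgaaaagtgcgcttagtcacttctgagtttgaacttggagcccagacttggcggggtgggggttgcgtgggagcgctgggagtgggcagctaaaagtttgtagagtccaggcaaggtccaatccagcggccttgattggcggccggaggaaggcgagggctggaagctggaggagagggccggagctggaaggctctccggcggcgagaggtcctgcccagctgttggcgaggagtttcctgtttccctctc
Smad3, chr9:63757945-63758244, minus strand: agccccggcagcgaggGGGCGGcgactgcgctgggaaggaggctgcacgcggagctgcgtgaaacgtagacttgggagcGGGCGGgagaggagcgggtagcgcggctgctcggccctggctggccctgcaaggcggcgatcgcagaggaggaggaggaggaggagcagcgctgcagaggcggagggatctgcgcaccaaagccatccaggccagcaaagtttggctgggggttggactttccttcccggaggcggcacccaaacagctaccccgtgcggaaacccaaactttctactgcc

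The GC box occurred 2 times in the Tgfbr1 window, 6 times in the Tgfb1 window and 2 times in the Smad3 window, and its letters were not found in the Tgfbr2 window. It was present in 69.5% of the 10542 promoter windows that overlapped a region of the matrix and in 35.7% of all 32851 windows. GC content was 74.7% for Tgfbr1, 77.0% for Tgfb1, 59.0% for Tgfbr2 and 67.7% for Smad3, against a median of 62.3% for windows that overlapped a region and 52.7% for all windows. The Ski window, whose sequence is not printed because the Ski region lies just upstream of it, had 85.3% GC and 6 GC boxes. The core letters of the SMAD box, CAGAC or GTCTG, occurred 1 time in the Tgfbr2 window, at position -160 from the start, and were not found in the Tgfbr1, Tgfb1, Smad3 or Ski windows, while 49.6% of all windows and 46.3% of those overlapping a region held them. The cAMP response element TGACGTCA, the AP-1 letters TGACTCA and the ETS letters CCGGAAG, searched on both strands, were in none of these 5 windows. All windows held them in 1.79%, 5.20% and 8.86% of cases, and windows that overlapped a region in 3.76%, 3.28% and 21.1%. The window of a second annotated start inside Tgfbr1, which is not among these 5, overlapped no region and held 1 SMAD box, at position -203. These matches describe letters only, and no binding was measured.

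With palmitate and TMM scaling, regions at the ends of 6 of the 9 genes were called higher, while weak regions inside Smad2, Smad3, Smad4 and Ski were called lower. Of all gene-end regions 25% were called higher, and of all regions inside genes 19.6% were called lower. With trended offsets, described below, only the Tgfbr1 end of these 6 stayed called. These 5 lower regions were each in at most 1 of the 3 palmitate peak lists and in 2 or 3 of the control lists, and since every region of the matrix was in 2 or more lists, they entered it through control peaks, a selection that favours lower values. The 2 regions that were higher away from a gene end both lay at Tgfbr2. Of the 49 regions, 48 had enough reads to be tested, and 9 were called higher, 5 lower and 34 not called (edgeR quasi-likelihood test, adjusted p below 0.05). Of all 24316 regions tested, 11.9% were called higher and 12.7% lower. The median log2 fold change, palmitate over control, was 0.09 over the 48 regions and -0.05 over all regions. The palmitate libraries all lay above the control libraries in 10 of the 48 regions, against 17.9% of all regions, and all below them in 7, against 21% of all regions. The region left untested, 44.3 kb upstream of Smad3, had 3, 8 and 7 reads with palmitate and 14, 16 and 7 reads in control.

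Across the whole matrix the fold change followed how strong a region was. Regions with a mean over 100 CPM had a median log2 fold change of 0.27 and 69.3% were called higher, while those under 10 CPM had a median of -0.46, with 0.64% called higher and 22.3% lower. Of the regions at the 9 genes, 5 of the 6 over 100 CPM were called higher, and 4 of the 8 under 10 CPM were called lower. The calls at the 9 genes are therefore also given with trended offsets, which remove, library by library, a smooth curve of signal on region strength. This scaling left 2 of the 48 regions called higher, at Tgfbr1 and upstream of Tgfbr2, and 0 lower, beside 2.24% higher and 4.15% lower of all regions. Scaling to total counts instead, which moved the median of all regions by -0.11, gave 5 of the 48 higher and 6 lower. Of all calls, 48.5% were higher with the TMM scaling used here (trimmed mean of M-values), 35.1% with trended offsets and 23.0% with total counts. Whether the trend on strength is technical or belongs to the cells was not tested.

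**Figure D1:**
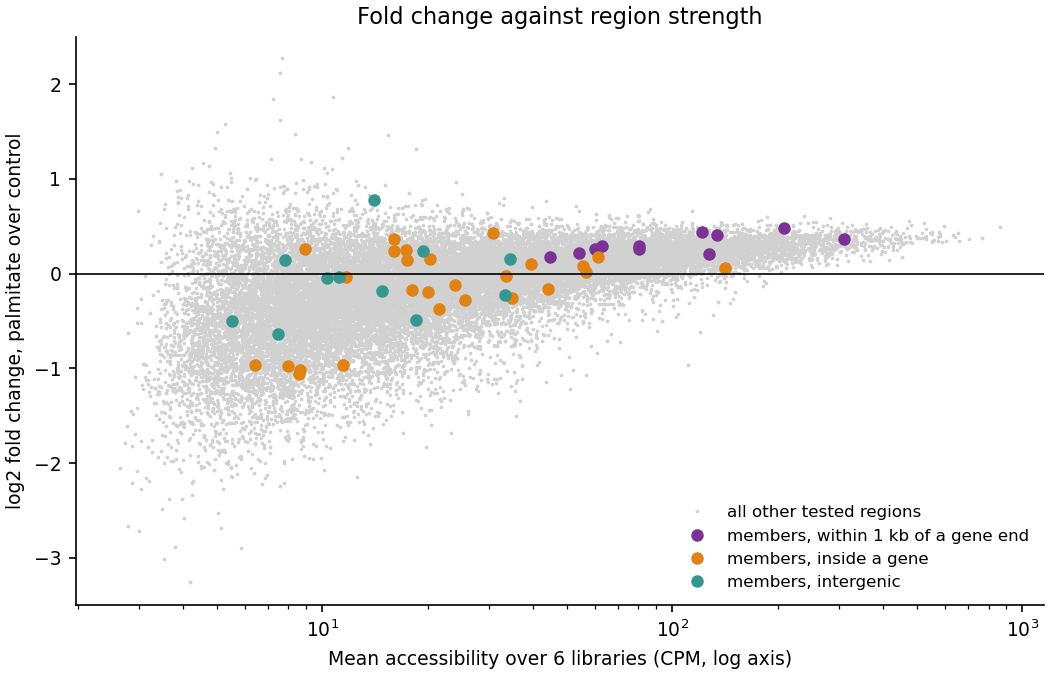
Each point is 1 tested region, with its mean accessibility over the 6 libraries in CPM (log axis) and its log2 fold change, palmitate over control (TMM). The coloured points are the 48 regions at the 9 genes: the 11 gene-end regions lie to the right and all above 0, and the 5 lower calls lie to the left.

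The higher calls lay mostly at gene ends and the lower calls inside genes. The 11 regions within 1 kb of a gene end all had positive log2 fold changes, 0.18 to 0.48, except that Smad2 turned to -0.01 under trended offsets. Of the 11, 7 were called higher and 0 lower by edgeR, with 9 higher and 0 lower with p below 0.05 before adjustment and 4 higher and 0 lower in the DESeq2 Wald test. Of all 9405 gene-end regions, 25% were called higher and 2.47% lower, with a median of 0.14. The 37 tested regions farther from gene ends gave 2 higher calls, both at Tgfbr2, and 5 lower calls, all inside a gene. Among all regions inside genes 4.3% were called higher and 19.6% lower, and among all intergenic regions 2.67% higher and 18.4% lower. Under trended offsets the 11 gave 1 higher and 0 lower call (3 and 0 with p below 0.05 before adjustment), beside 2.64% and 1.41% of all gene-end regions. Away from ends it was 1 higher and 0 lower of 37 (6 and 4 with p below 0.05 before adjustment), beside 2.07% higher and 6.02% lower of all regions inside genes and 1.87% higher and 5.66% lower of intergenic ones. The gene-end regions were also the strong ones: their median was 80.4 CPM, against 17.8 CPM for the regions away from ends.

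**Figure D2:**
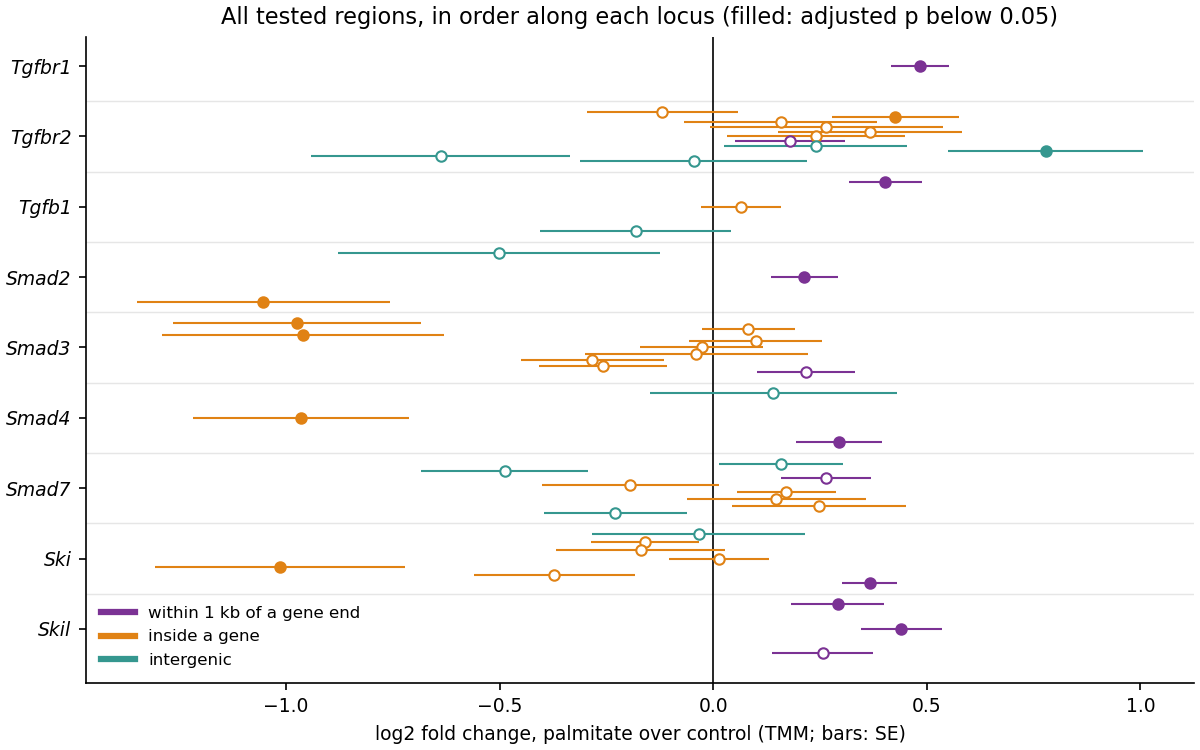
Log2 fold change, palmitate over control, of the 48 tested regions, by gene and in order along the chromosome. Bars are standard errors, colours give the position and filled points passed an adjusted p of 0.05. With this TMM scaling the gene-end regions all lie right of 0, the 5 filled points near -1 lie inside Smad2, Smad3, Smad4 and Ski, and the filled point farthest to the right lies upstream of Tgfbr2.

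Tgfb1 encodes the ligand, and its start was more open with palmitate. The region over the start (chr7:25686777-25687482) had 142, 176 and 139 CPM in palmitate libraries 1 to 3, against 113, 109 and 125 CPM in control libraries 1 to 3. All palmitate values lay above all control values. The means were 153 ± 20.5 CPM with palmitate and 116 ± 8.61 CPM in control (SD, n = 3 each), a log2 fold change of 0.40 ± 0.086 (SE) with an adjusted p of 0.000916, and 0.17 with an adjusted p of 0.21 under trended offsets. A region inside the gene, 2.08 kb from the start (chr7:25689085-25689802), was as strong. It had 135, 152 and 144 CPM with palmitate and 159, 109 and 148 CPM in control, which overlapped (log2 fold change 0.06, adjusted p 0.652). The third region, 2.55 kb beyond the far end, was weak and was not called either.

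Tgfbr1 encodes the type I receptor, the kinase that phosphorylates the receptor SMADs, and it had 1 region, which covers its start (chr4:47352903-47353445). That region had 241, 252 and 236 CPM in palmitate libraries 1 to 3, against 166, 168 and 188 CPM in control libraries 1 to 3. The groups were far apart relative to their spread. The means were 243 ± 8.14 CPM with palmitate and 174 ± 12.2 CPM in control (SD, n = 3 each), 1.40-fold, with a log2 fold change of 0.48 ± 0.068 and an adjusted p of 9.11e-06. It was stronger than 97.6% of all regions, and under trended offsets its log2 fold change was 0.19 with an adjusted p of 0.0486. That trended call was lost whichever of the 6 libraries was left out, with adjusted p values of 0.0553 to 0.208. No other region lay inside Tgfbr1 or closest to its ends.

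**Figure D3:**
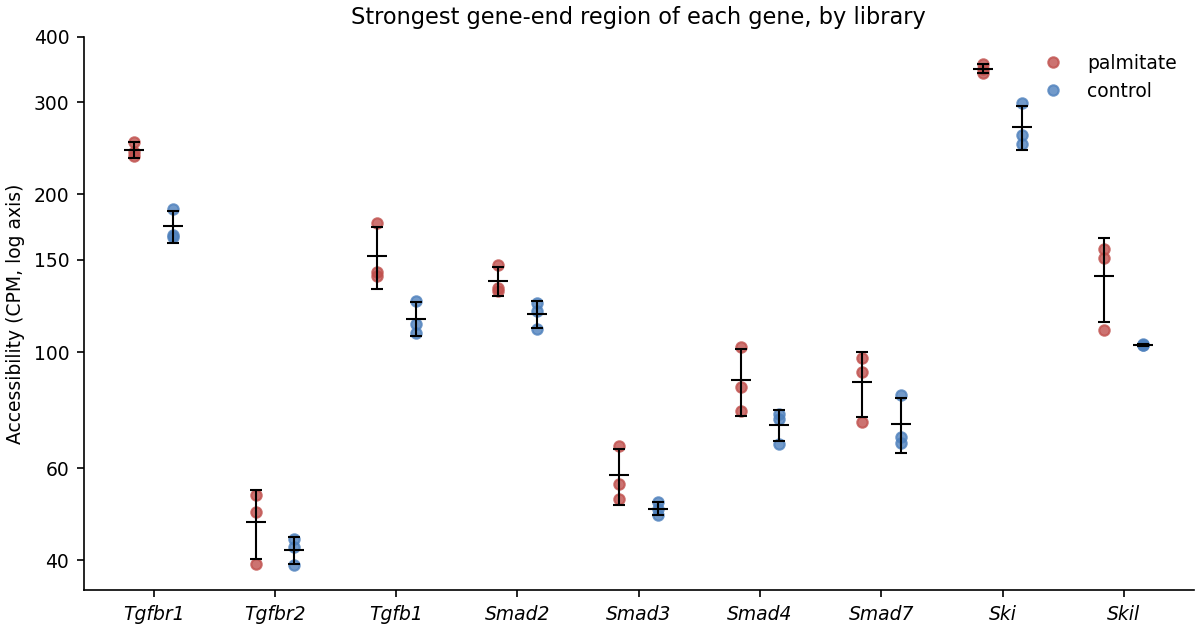
Accessibility in CPM (log axis) of the strongest gene-end region of each gene, with 3 palmitate libraries to the left of 3 control libraries, and the mean and SD as bars. Palmitate and control libraries overlap at Tgfbr2 and Smad7, and lie apart at the other 7 genes.

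Tgfbr2 encodes the type II receptor, which binds the ligand, and its start did not pass the test while 2 regions away from its ends were higher. The region over the start (chr9:116174817-116176068) had 39.4, 53.3 and 49.4 CPM in palmitate libraries 1 to 3, against 39.2, 43.9 and 42.5 CPM in control libraries 1 to 3. The groups overlapped, and the log2 fold change was 0.18 ± 0.13 with an adjusted p of 0.328. At 41.8 CPM in control it was the weakest of the strongest gene-end regions of the 9 genes.

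The clearest change at Tgfbr2 lay 14.5 kb upstream of the start, in an intergenic region 270 bp wide (chr9:116189894-116190164). It had 17.3, 14.9 and 21.1 CPM in palmitate libraries 1 to 3, against 10.4, 9.31 and 11.2 CPM in control libraries 1 to 3, from 44, 44 and 55 reads with palmitate and 24, 28 and 33 reads in control. Every palmitate library lay above every control library. The means were 17.8 ± 3.09 CPM with palmitate and 10.3 ± 0.957 CPM in control (SD, n = 3 each), 1.72-fold, with a log2 fold change of 0.78 ± 0.23 and an adjusted p of 0.0122. This was the largest positive fold change of the 48 regions. Trended offsets lowered the values of the gene-end regions and raised those of every Tgfbr2 region away from its ends. Here the value rose to 1.01 with an adjusted p of 0.0063 under that scaling. A peak was listed there in all 6 of the authors' peak lists, with the authors' scores of 169, 187 and 198 in palmitate and 76, 74 and 83 in control. The call held in 17 of 20 alternatives, and was lost without palmitate library 3 (log2 fold change 0.64, adjusted p 0.0924), in the same fit with trended offsets (0.91, adjusted p 0.0582) and in the DESeq2 Wald test (0.81, adjusted p 0.0514).

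Another region closer to Tgfbr2, 13.5 kb upstream (chr9:116188841-116189379), was not called. It had 24.0, 18.7 and 20.7 CPM with palmitate, against 13.9, 24.9 and 13.9 CPM in control (log2 fold change 0.24 ± 0.21, adjusted p 0.44). Control library 2 lay above every palmitate library there, and the other two controls lay below them.

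Inside Tgfbr2, 26.6 kb from the far end of the gene, a second region passed (chr9:116114271-116114694). It had 35.1, 36.0 and 35.2 CPM with palmitate, against 23.9, 29.3 and 25.5 CPM in control, and the groups did not overlap. Its log2 fold change was 0.43 ± 0.15 with an adjusted p of 0.0343, and 0.46 with an adjusted p of 0.0561 under trended offsets. The call was lost whichever palmitate library was left out, and without control 1 or 3 (adjusted p 0.0701 to 0.112), and held in 6 of 20 alternatives. The 4 regions between it and the start had log2 fold changes of 0.16 to 0.37 and were not called. Of the 10 regions away from the ends of Tgfbr2, 7 were positive with a median log2 fold change of 0.24, and under trended offsets 8 were positive with a median of 0.42. The medians over all regions inside genes were -0.24 with TMM and -0.03 with trended offsets, and over all intergenic regions -0.25 and -0.02. Of all 24316 regions tested, 11119 were positive with TMM and 12867 with trended offsets. Summed, the 10 Tgfbr2 regions had 184, 164 and 193 CPM with palmitate, against 139, 178 and 146 CPM in control (log2 fold change 0.22, adjusted p 0.0692). The sum passed without control 2 (0.33, adjusted p 0.0016) or palmitate 2 (0.29, adjusted p 0.0487) and with DESeq2 size factors (0.25, adjusted p 0.0374), and was 0.15 without control 1 (adjusted p 0.254). The region 36.7 kb upstream had 5.51, 4.07 and 8.04 CPM with palmitate, against 9.14, 8.64 and 9.51 CPM in control, all below control, with an adjusted p of 0.124.

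**Figure D4:**
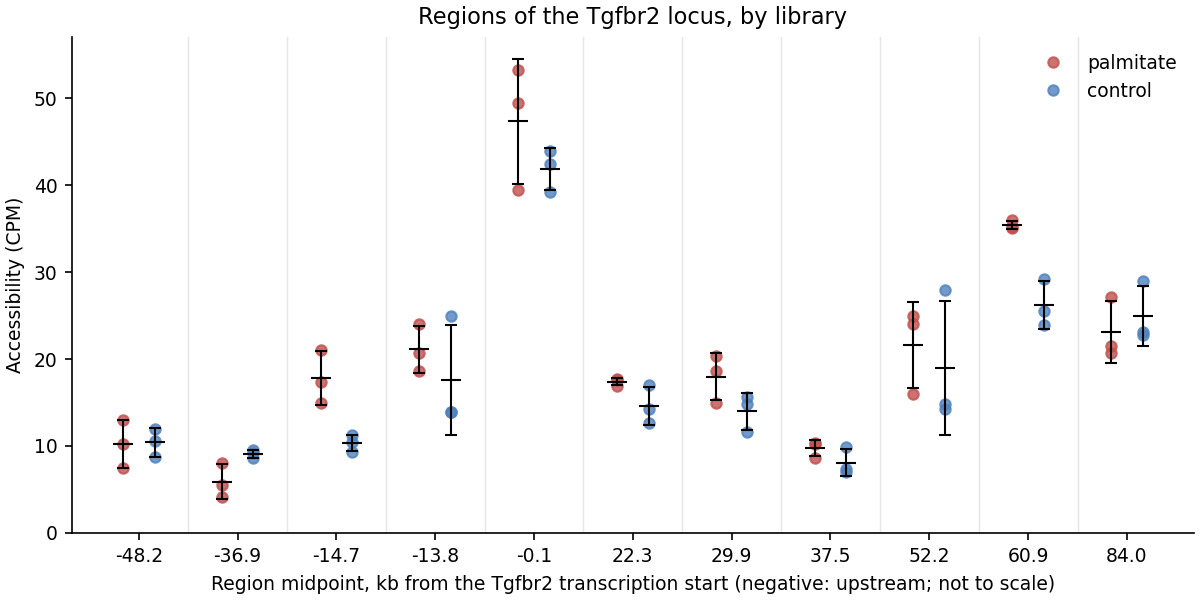
Accessibility in CPM of the 11 Tgfbr2 regions, ordered by the distance of their midpoint from the transcription start in kb (not to scale), with 3 palmitate libraries to the left of 3 control libraries and bars for mean and SD. The groups separate with palmitate above in the region 14.7 kb upstream by midpoint and in the one 60.9 kb into the gene.

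Smad2 and Smad3 encode the receptor SMADs of the pathway, and each had a higher or not called gene end and lower weak regions inside the gene. The region at the end of Smad2 (chr18:76241145-76241940) had 133, 147 and 131 CPM in palmitate libraries 1 to 3, against 120, 111 and 124 CPM in control libraries 1 to 3. The groups lay apart by a small margin, with a log2 fold change of 0.21 ± 0.079 and an adjusted p of 0.0452. This value was -0.01 under trended offsets (adjusted p 0.934), and the call was lost whichever palmitate library was left out, and without control 1 or 2 (adjusted p 0.059 to 0.225). The region inside the gene, 18.7 kb away (chr18:76259743-76259983), had 5.51, 6.11 and 4.98 CPM with palmitate, against 13.9, 13.3 and 7.81 CPM in control. Every palmitate library lay below every control library there, with a log2 fold change of -1.05 ± 0.30 and an adjusted p of 0.00909. Under trended offsets it was -0.68 with an adjusted p of 0.168.

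At Smad3, known in T cells for repressing cytokine genes downstream of TGF-beta, the region over the start (chr9:63757885-63758525) had 52.4, 66.2 and 55.9 CPM with palmitate, against 48.8, 50.2 and 51.6 CPM in control. All palmitate values lay above control, but the difference did not pass (log2 fold change 0.22 ± 0.11, adjusted p 0.172). Of its 8 tested regions inside the gene, 2 were called lower. The one at chr9:63678146-63678362 had 4.73, 5.77 and 5.75 CPM with palmitate, against 8.27, 12.0 and 11.5 CPM in control (log2 fold change -0.97 ± 0.29, adjusted p 0.0135). The one at chr9:63711886-63712129 had 5.91, 3.73 and 3.45 CPM with palmitate, against 7.84, 6.98 and 10.5 CPM in control (log2 fold change -0.96 ± 0.33, adjusted p 0.0308). Neither was listed as a peak in any palmitate library, while 3 and 2 of the control lists held them. Their trended values were -0.58 and -0.49 with adjusted p of 0.239 and 0.403. The other 6 regions inside Smad3, at 11.7 to 55.5 CPM on average, had log2 fold changes from -0.28 to 0.10 and were not called. The first of the lower regions lost its call without palmitate 1 or control 3 (adjusted p 0.0543 and 0.0607), and the second without palmitate 2, palmitate 3 or control 3 (adjusted p 0.122 to 0.185).

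Smad4 encodes the common SMAD that joins the receptor SMADs. The region over its end at the higher coordinate (chr18:73703671-73704191) had 85.9, 102 and 77.0 CPM in palmitate libraries 1 to 3, against 74.4, 66.8 and 76.1 CPM in control libraries 1 to 3. The groups were apart by a narrow margin, with a log2 fold change of 0.29 ± 0.10 and an adjusted p of 0.031, and 0.13 with an adjusted p of 0.469 under trended offsets. Without palmitate 2 it was 0.17 (adjusted p 0.285) and without control 2 it was 0.24 (adjusted p 0.0969). The region inside the gene, 8.39 kb from its other end (chr18:73643181-73643453), had 8.67, 8.83 and 5.75 CPM with palmitate, against 13.5, 15.3 and 16.6 CPM in control. The groups were well separated, and the log2 fold change of -0.97 ± 0.25 had an adjusted p of 0.00524, which passed whichever library was left out. Under trended offsets it was -0.68 with an adjusted p of 0.101.

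Smad7 encodes the inhibitory SMAD, a target gene of the pathway that blocks the type I receptor. None of its 8 regions was called by edgeR with TMM or by DESeq2, with 1 higher and 1 lower with p below 0.05 before adjustment. The region over its end at the lower coordinate (chr18:75366964-75367879) had 91.8, 97.4 and 73.6 CPM in palmitate libraries 1 to 3, against 68.8, 67.1 and 82.9 CPM in control libraries 1 to 3. The groups overlapped through palmitate 3 and control 3, with a log2 fold change of 0.26 ± 0.10 and an adjusted p of 0.0623, and it passed with DESeq2 size factors in edgeR (0.30, adjusted p 0.0414), without palmitate 3 (0.38, adjusted p 0.0198) or without control 3 (0.39, adjusted p 0.0224). The region 13.5 kb outside that end (chr18:75353482-75353883) averaged 15.4 ± 0.5 CPM with palmitate and 21.6 ± 2.37 CPM in control (SD, n = 3 each), with every palmitate library below every control library and an adjusted p of 0.0642. The other 6 regions had log2 fold changes from -0.23 to 0.25.

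Ski and Skil encode nuclear corepressors that bind SMAD complexes and hold target genes off, and Skil is itself a target of the pathway. The Ski region, 0.497 kb upstream of the start (chr4:155223032-155223593), had 341, 354 and 348 CPM in palmitate libraries 1 to 3, against 260, 250 and 299 CPM in control libraries 1 to 3. It was the strongest of the 49 regions and the groups lay far apart, with a log2 fold change of 0.37 ± 0.065 and an adjusted p of 0.000124. Under trended offsets the value was 0.03 with an adjusted p of 0.804. Inside Ski, 14.2 kb from the start, a weak region (chr4:155207907-155208312) had 7.48, 5.43 and 4.21 CPM with palmitate, against 12.6, 13.0 and 9.17 CPM in control. Each palmitate value was lower than each control value, with a log2 fold change of -1.01 ± 0.29 and an adjusted p of 0.0107, lost without palmitate 3 (adjusted p 0.0768), and a trended value of -0.64 with an adjusted p of 0.186. The other 5 Ski regions had log2 fold changes from -0.37 to 0.01 and were not called.

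All 3 Skil regions lay within 1 kb of 1 end of the gene. The strongest (chr3:31094484-31095087) had 151, 158 and 110 CPM in palmitate libraries 1 to 3, against 104, 103 and 103 CPM in control libraries 1 to 3. Palmitate 3 lay only slightly above control and the other two far above, with a log2 fold change of 0.44 ± 0.095 and an adjusted p of 0.000971. The trended value was 0.22 with an adjusted p of 0.156. The neighbour at chr3:31093712-31094255 had 71.7, 68.9 and 67.0 CPM with palmitate, against 57.9, 48.5 and 63.5 CPM in control (log2 fold change 0.29 ± 0.11, adjusted p 0.0468, trended 0.17 with an adjusted p of 0.378, not called when palmitate 1, 2 or 3 or control 1 or 2 was left out). The third region overlapped between groups (log2 fold change 0.26, adjusted p 0.112).

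Summed per gene, 7 of the 9 gene ends were called higher, all but Tgfbr2 and Smad3, beside 30.4% of the 9919 genes tested, and none lower, beside 2.65%. With trended offsets 0 of the 9 passed in edgeR (2 higher and 0 lower with p below 0.05 before adjustment), beside 1.22% of genes higher and 1.9% lower. For these sums the curve was fitted to the gene-end sums themselves, so a rise shared by gene ends of like strength was removed with it. The median log2 fold change over all genes went from 0.15 to 0.006. The sum at Smad7 rests on its 1 gene-end region and passed here (adjusted p 0.0397), where the adjustment runs over genes. That call held in 4 of 13 alternatives, and was lost without palmitate 1, palmitate 2, control 1 or control 2 (adjusted p 0.099 to 0.241). The summed regions away from the ends were called lower at Smad2 and Smad4, beside 23.3% of 6561 genes, and higher at none, beside 5.3%, with 1 higher and 3 lower with p below 0.05 before adjustment and 0 calls in the DESeq2 Wald test. Trended offsets, here a curve fitted to the distal sums themselves, left 0 calls among these sums (0 higher and 2 lower with p below 0.05 before adjustment), beside 8.15% of genes higher and 9.08% lower. Smad2 had 13.0, 10.2 and 7.28 CPM away from its end with palmitate, against 18.7, 22.6 and 12.9 CPM in control, which overlapped between palmitate 1 and control 3 (log2 fold change -0.83, adjusted p 0.0163). Smad4 had 17.3, 15.6 and 14.9 CPM with palmitate, against 21.8, 23.3 and 22.8 CPM in control (log2 fold change -0.50, adjusted p 0.0471). Both calls were lost without some single libraries, Smad2 without palmitate 2, palmitate 3 or control 2 (adjusted p 0.0547 to 0.105) and Smad4 whichever of the 6 was left out (adjusted p 0.0612 to 0.141). Both sums include the region called lower above, which entered the matrix through control peaks. The same selection therefore bears on them, and they are not separate support.

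A ratio within each library asks whether a locus changed unequally, since library scaling cancels in it. The log2 ratio of reads away from the ends to reads at the ends was lower with palmitate in 3 of the 7 genes that have both (limma), beside 28.7% of 3901 genes, and higher in 0, beside 1.05%, with 5 lower and 0 higher with p below 0.05 before adjustment. Ski had log2 ratios of -1.13, -1.17 and -1.30 with palmitate, against -0.59, -0.52 and -0.88 in control, a difference of -0.54 ± 0.12 (adjusted p 0.00974). Smad4 had -2.30, -2.70 and -2.35 with palmitate, against -1.76, -1.52 and -1.73 in control, a difference of -0.78 ± 0.19 (adjusted p 0.0117). Smad2 had -3.33, -3.83 and -4.13 with palmitate, against -2.66, -2.28 and -3.25 in control, a difference of -1.03 ± 0.27 (adjusted p 0.016), which did not pass without palmitate 3 (adjusted p 0.0646) or control 1 (adjusted p 0.0503). The reads away from the ends of these 3 genes include the regions called lower above. Those regions entered the matrix through control peaks, a selection that favours lower ratios too.

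In those 3 genes every palmitate ratio lay below every control ratio, and the median difference over all 3901 genes was -0.34. Tgfb1 and Smad3 had differences of -0.35 and -0.32 (adjusted p 0.0976 and 0.107) and Smad7 of -0.23 (adjusted p 0.383). Tgfbr2 was the only one of the 7 with a positive difference, 0.06 ± 0.17 (adjusted p 0.814), and its groups overlapped. With trended offsets none of the 7 passed, and none had an unadjusted p below 0.05, beside 2.31% of genes lower and 0.359% higher.

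**Figure D5:**
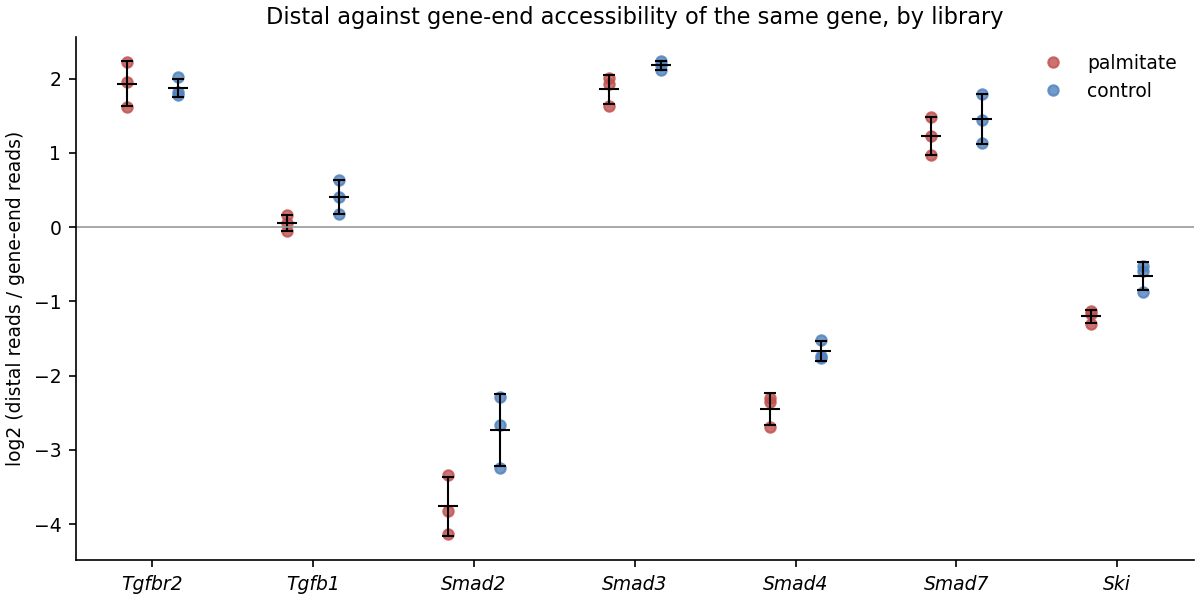
Log2 ratio of reads away from the gene ends to reads at the gene ends, by library, for the 7 genes that have both, with 3 palmitate libraries to the left of 3 control libraries and bars for mean and SD. The palmitate libraries lie below the controls at Tgfb1, Smad2, Smad3, Smad4 and Ski, and overlap them at Tgfbr2 and Smad7.

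The same ratio for single regions, chosen after the data were seen, set each of the 37 regions away from the ends against the gene end of its own gene. It was lower in 8, beside 22% of 9024 regions, and higher in 0, beside 1.46% (limma, 1 higher with p below 0.05 before adjustment). The 8 comprised the 5 regions called lower above, 2 further Ski regions and the Smad7 region 13.5 kb outside its end. Those 5 entered the matrix through control peaks, so this ratio is not separate support for their change. The region 14.5 kb upstream of Tgfbr2 had the largest positive difference, 0.60 ± 0.26, with an adjusted p of 0.0982, and 0.88 with an adjusted p of 0.0512 under trended offsets. That it rose more than the Tgfbr2 start therefore did not pass the test. With trended offsets 0 of the 37 passed in either direction (1 higher and 4 lower with p below 0.05 before adjustment), beside 0.742% higher and 4.68% lower.

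Other genes of the pathway were taken from 5 lists. Of their 63 genes, 50 had regions, and of 130 tested regions 15 were called higher and 11 lower, beside 11.9% and 12.7% of all regions, with a median log2 fold change of -0.05. Within 1 kb of a gene end 9 of 47 were higher and 0 lower, and away from ends 6 of 83 were higher and 11 lower. Of all gene-end regions 25% were higher and 2.47% lower, of all regions inside genes 4.3% and 19.6%, and of all intergenic regions 2.67% and 18.4%. With trended offsets 2 regions were higher and 1 lower, and of the 15 higher and 11 lower calls 1 of each remained. Of the 11 lower regions, 9 were in at most 1 palmitate peak list, so that they too entered the matrix through control peaks.

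Among ligand and activation genes, 2 of 15 regions were called higher and 1 lower (13.3% and 6.67%), beside 11.9% and 12.7% of all regions. The region inside Nrros, whose product anchors latent TGF-beta on myeloid cells, had a log2 fold change of 0.55 (adjusted p 0.0201, trended adjusted p 0.0339), and the region inside Ltbp4, a latent TGF-beta binding protein, 0.42 (adjusted p 0.0323, trended adjusted p 0.0776). The region 32.0 kb from Lrrc32, whose product GARP anchors latent TGF-beta on regulatory T cells, had -0.42 (adjusted p 0.027, trended adjusted p 0.0565).

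Among other receptors, 2 of 22 regions were higher and 3 lower (9.09% and 13.6%), beside 11.9% and 12.7% of all regions. The end regions of Bambi, a pseudoreceptor, and Acvr1b, an activin type I receptor, had log2 fold changes of 0.26 (adjusted p 0.0223) and 0.30 (adjusted p 0.0287), and 0.05 and 0.14 under trended offsets (adjusted p 0.748 and 0.456). Regions near Bmpr2, a BMP type II receptor, and Acvr1, a BMP type I receptor, had -1.53 (adjusted p 0.00228, trended adjusted p 0.0726) and -0.84 (adjusted p 0.00261). The Acvr1 region lies inside the gene Upp2, 22.7 kb from Acvr1, and also passed with trended offsets (adjusted p 0.0354). The other SMADs, with regions at 3 of the genes Smad1, Smad5, Smad6 and Smad9, had 0 calls in 6 regions by edgeR or DESeq2, with 2 higher and 1 lower with p below 0.05 before adjustment.

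SMAD regulators and partners gave 8 higher and 6 lower calls in 68 regions (11.8% and 8.82%), beside 11.9% and 12.7% of all regions. Tgif1, a homeodomain corepressor of SMADs, rose at its end by a log2 fold change of 0.45 (adjusted p 0.000249), and Nedd4l, a ubiquitin ligase for activated SMADs, inside the gene by 0.42 (adjusted p 0.00258). Weak regions inside Hipk2, a nuclear kinase, and Wwp1, a ubiquitin ligase, had -1.51 (adjusted p 0.0013) and -1.86 (adjusted p 0.00165), and neither was in any palmitate peak list while both were in 3 control lists. None of these 14 calls passed with trended offsets.

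Among target genes known in T cells, 3 of 19 regions were higher and 1 lower, all at Id2 or Id3. These shares were 15.8% and 5.26%, beside 11.9% and 12.7% of all regions. Itgae and Cdkn1a had regions that were not called, and Foxp3 had no region. The region over an end of Id2, a repressor of E proteins that supports effector CD8+ T cells, had 98.9, 99.8 and 118 CPM with palmitate, against 73.6, 81.8 and 75.1 CPM in control (log2 fold change 0.46, adjusted p 0.000515). The groups lay apart, and the trended adjusted p was 0.0659. A region 36.5 kb from Id3, a related repressor kept in memory precursors, had a log2 fold change of 0.38 (adjusted p 0.0325, trended adjusted p 0.14), and a region 47.5 kb from Id2 had -0.87 (adjusted p 0.0371, trended adjusted p 0.405).

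The authors' own peak lists, called library by library, held 45, 47 and 42 peaks at the 9 loci in palmitate libraries 1 to 3, against 44, 57 and 50 in control libraries 1 to 3. The groups overlapped in this count, while the lists as a whole held 20201 to 21502 peaks with palmitate and 22359 to 27122 in control. Of the 49 regions, 34 were listed in all 6 libraries, the 11 gene-end regions among them. The 5 lower regions were each listed in 2 to 4 of the 6 lists, at most 1 of them a palmitate list.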

How the data were processed

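The deposited matrix gives unnormalized counts for 24605 regions and 6 libraries, and a peak list per library carries a score from the authors' peak calling. Per the submitters' processing notes the build was mm10 and the tools were MACS2 2.2.8, edgeR 3.40.2, Bowtie2 2.5.1, Trim Galore 0.6.10 and Picard 2.23.8. The sources used here do not give the shift to the Tn5 cut, the merging of peaks or the counting. All regions lay in 2 or more peak lists.

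Regions were placed on protein-coding gene spans of GRCm38.p6 (mm10, RefSeq), with coordinates as in the matrix. A gene end means within 1 kb of either end. Two-sided tests of the deposited counts used edgeR's quasi-likelihood fit (version 4.0.16 under R 4.3.3), with 3 palmitate against 3 control libraries and no covariates. filterByExpr left 24316 regions and removed 289, TMM factors were 0.954 to 1.05, and p-values were adjusted by Benjamini-Hochberg over all regions at 0.05. Standard errors come from the fold change and its F statistic, and the common biological coefficient of variation was 0.0659. 1 read corresponds to 0.332 to 0.435 CPM. Counts summed per gene were tested alike over all genes. Log2 ratios used a pseudocount of 0.5 reads and limma 3.58.1. Trended offsets are a loess curve (span 0.3) of log2(count + 0.5) on mean abundance. Gene-end sums and distal sums each had a curve of their own, while the ratios used a curve fitted to the regions. The fits were also run on simulated counts with known changes. Those counts had no trend of fold change on region strength, so the handling of that trend was not checked.

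Alternatives were DESeq2 size factors, total counts, trended offsets, other count filters, the DESeq2 1.42.0 Wald test, limma-voom, a replicate block, other region rules and each library left out. The genes and lists were chosen with earlier results of these data known. Named were each gene's strongest gene-end region, its region with the smallest p and every called region, and for the other pathway lists the 2 called regions with the smallest p in each direction. Other regions were named after their values were seen. 1 marker gene of another cell type is not reported here.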

Additional observations from a re-analysis of the deposited data

How the results depend on the processing

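Most calls depend on how the trend on region strength is handled. Of the regions at the 9 genes, 9 were called higher and 5 lower with TMM. Higher calls fell to 5 with total counts, 2 with trended offsets, 5 with at least 20 reads in 3 libraries and 4 in the DESeq2 Wald test, and numbered 5 to 9 with 1 library left out. Lower calls numbered 0 with trended offsets, 1 in the DESeq2 Wald test, 0 in regions of all 6 peak lists (a filter that itself removes regions lower with palmitate), and 3 to 5 with 1 library left out. With trended offsets and 1 library left out, a combination chosen after the data were seen, there were 1 to 4 higher and 0 to 1 lower calls, the most without control 2. At the other pathway genes, higher calls numbered 15, then 5 with total counts, 2 with trended offsets, 8 in the DESeq2 Wald test and 7 to 16 with 1 library left out. Lower calls there numbered 11, then 20 with total counts, 1 with trended offsets, 5 in the DESeq2 Wald test and 6 to 17 with 1 library left out.

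Gene-end sums called higher numbered 7, then 4 with total counts, 0 with trended offsets and 4 to 7 with 1 library left out. Distal sums called higher numbered 0, then 1 with DESeq2 size factors (Tgfbr2) and 0 to 1 with 1 library left out. Distal sums called lower numbered 2, then 1 with DESeq2 size factors, 4 with total counts, 0 with trended offsets, 0 in the DESeq2 Wald test and 0 to 1 with 1 library left out. The distal to gene-end ratio was lower in 3 genes and in 0 with trended offsets. For single regions against their own gene end, 8 were lower, 0 with trended offsets and 4 to 7 with 1 library left out.

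Signs turned in values near 0. With trended offsets the Smad2 gene-end region was -0.01, and without palmitate 1, palmitate 2, control 1 or control 2 it was -0.0045, -0.058, -0.013 and -0.045. The Smad2 gene-end sum was -0.013 with trended offsets, and the Ski gene-end region -0.0064 with trended offsets and without control 1. The Tgfb1 distal sum was -0.076 with total counts and ranged from -0.11 (without control 2) to 0.13 with 1 library left out, with -0.015 without palmitate 2. The Smad7 distal sum was -0.099 with total counts, -0.040 with trended offsets, -0.018 with at least 20 reads, and -0.020, -0.031 and -0.028 without palmitate 1, control 1 or control 3, up to 0.14 without control 2. The Tgfbr2 ratio was -0.081 without palmitate 1 and up to 0.22 with another library left out. The cause was not tested.

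Libraries of the same number did not deviate together (correlations 0.0004, -0.10 and -0.027), and those of different numbers had correlations of -0.069 to 0.093. The labels do not say whether the numbers pair libraries, and these correlations cannot decide it. With a replicate block there were 7 higher and 5 lower calls, 5 gene-end sums higher and 1 distal sum lower. With 1 read worth 0.332 to 0.435 CPM, the regions under 10 CPM rest on few reads, and differences there are detectable only where large.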
